A study of Populus tremula x Populus tremuloides with 12 samples.

Results

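Leaves of sunlight-exposed poplars that overexpressed MYB165 were set against leaves of sunlight-exposed wild-type poplars. The members were chosen by the genotype and growth condition in the sample labels, which gave 3 libraries of OE sunlight and 3 of WT sunlight, 6 of the 12 libraries in the series. All plants were hybrid poplar (Populus tremula x Populus tremuloides, clone INRA 353-38). OE plants carried MYB165 in the binary vector pMDC32, introduced by Agrobacterium, and WT plants carried no such vector. Every plant had spent 1 month in a mist chamber and 2 months in the greenhouse, and both sunlight groups then had 1 week outdoors. Leaves 7 to 10 by leaf plastochron index were taken. The other 6 libraries came from OE and WT plants that stayed in the greenhouse, and they serve below as separate plants of the same genotypes. Whether the OE plants came from 1 transformed line or several, and where the gene was inserted, is not stated in the labels. An effect of MYB165 and an effect of a particular line can therefore not be told apart.

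As background, MYB165 belongs to a family of plant transcription factors that bind DNA through a MYB domain, and it has been described in poplar as a repressor of the phenylpropanoid and flavonoid pathways. These pathways turn the amino acid phenylalanine into lignin, flavonoids, anthocyanins and condensed tannins, and poplar leaves make large amounts of such phenolics. Repressors of this kind act in part by taking up the helix-loop-helix partners that activating MYB factors need. Light is a well known inducer of the flavonoid pathway. The vector pMDC32 drives its gene from a strong viral promoter that is active in most plant tissues, so expression is not limited to the cells where the native gene is active.

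The files identify genes by ID only and do not pair IDs with names or functions. MYB165 itself and the genes of the phenylpropanoid pathway could therefore not be picked out, although they can be among the genes tested. The labelled genotype and tissue could not be checked against the targeted gene or leaf markers. Genes are described by direction, size of change, level and behaviour across libraries, and 4 are named by ID. Levels are given as CPM, counts scaled to a common library size and not corrected for gene length. The 6 libraries held between 5870132 (OE sunlight 2) and 27711999 (OE sunlight 6) gene counts, and the range in WT sunlight was 14361506 to 23184358. In the files 33975 genes are listed, and 22959 had enough counts to be tested. The share of reads outside annotated genes was between 7.55% and 13.1% in OE sunlight, against between 6.85% and 7.74% in WT sunlight. Its part in the differences below was not tested. Within groups, library pairs correlated at r = 0.964 to 0.980 in OE sunlight and r = 0.962 to 0.981 in WT sunlight across the tested genes, which are not independent replicates. Between groups r was 0.931 to 0.970. In a principal component analysis of these 6 libraries the first component took 42.2% of the variance in log2 CPM. It had the 3 OE libraries on one side, at scores of 24.4 to 55.0, and the 3 WT libraries on the other, at -59.8 to -19.5.

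In sunlight, most of the genes called between OE and WT leaves were lower in OE. A gene is said to be called, or to have risen or fallen, where the adjusted p of limma was under 0.05. In OE sunlight 286 genes were called, which is 1.25% of the genes tested. Of these 202 fell, or 0.88% of the genes tested, and 84 rose, or 0.366%. The genes that fell had a median log2 fold change (OE over WT) of -2.50, a 5.67-fold decrease, and the genes that rose had one of 1.47, a 2.78-fold increase. Over all tested genes the median was 0.0034 on the same scale, and 80% of them lay between -0.35 and 0.37. All 286 called genes had OE and WT libraries that did not overlap, as did 16% of the genes tested, 7.67% with OE lower and 8.29% with OE higher.

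**Figure D1:**
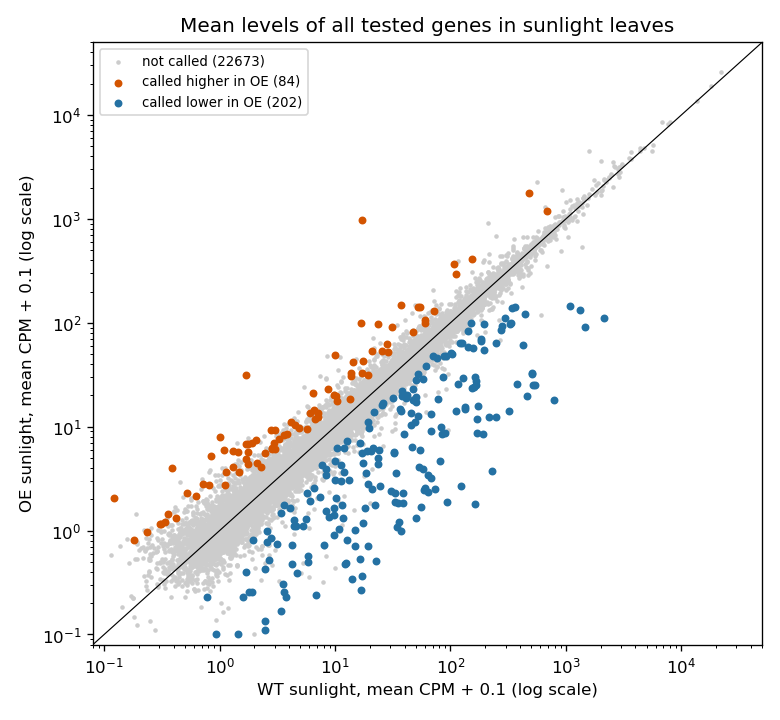
Each point is a gene, placed by its mean level in the 3 OE sunlight libraries (vertical) and in the 3 WT sunlight libraries (horizontal), in CPM plus 0.1 on log scales; the line marks equal levels. Many of the 202 genes called lower in OE (blue) lie far below the line. Most of the 84 called higher (orange) stay closer to it.

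The number of called genes changed when a single library was left out, which also leaves fewer replicates in a group. The part of fewer replicates in these numbers was not tested. The number was 156, 142 and 121 without OE sunlight 2, 4 and 6, while leaving out WT sunlight 2, 4 and 6 gave 184, 187 and 231. Of these calls, 34, 32 and 41 rose without OE sunlight 2, 4 and 6, and 44, 45 and 42 rose without WT sunlight 2, 4 and 6, against 84 with all libraries. It was 493, of which 221 rose and 272 fell, without OE greenhouse 3, a library outside this comparison that shares the estimate of each gene's spread. No gene called with all libraries was called in the opposite direction in any of the alternative fits. Those fits reuse the same libraries, so they are no separate test of direction. Of the 202 genes that fell, 76 were called in all 6 fits that left out a sunlight library, and their median log2 fold change with all libraries was -3.35. The remaining ones had a median of -1.88. Of the 84 genes that rose, 22 were called in all 6 fits.

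Large changes were mostly decreases. At least 8-fold changes were found for 83 of the 202 genes that fell and for 5 of the 84 that rose. At 16-fold or more the numbers were 47 lower and 3 higher, and at 32-fold or more 16 lower and 2 higher. Over all tested genes, which include the called ones, decreases of at least 8-fold also outnumbered increases. Of all tested genes, called or not, 103 had a fitted decrease of at least 8-fold and 13 a fitted increase of that size, and 80.6% and 38.5% of these were called. At 4-fold or more there were 159 fitted decreases, of which 126 were called, and 71 fitted increases, of which 24 were called. Among genes that were not called, increases were the more numerous at this limit. At the lower limit of 2-fold the order turned, with 474 fitted increases, of which 14.1% were called, and 380 fitted decreases, of which 46.6% were called. Without OE sunlight 6 the number of called genes at least 8-fold lower was 52, and over the fits without 1 library the number at least 8-fold higher was between 2 and 8. The 2 was reached without WT sunlight 6 and the 8 without OE greenhouse 3. With no filter on low counts 11 genes were at least 8-fold higher.

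**Figure D2:**
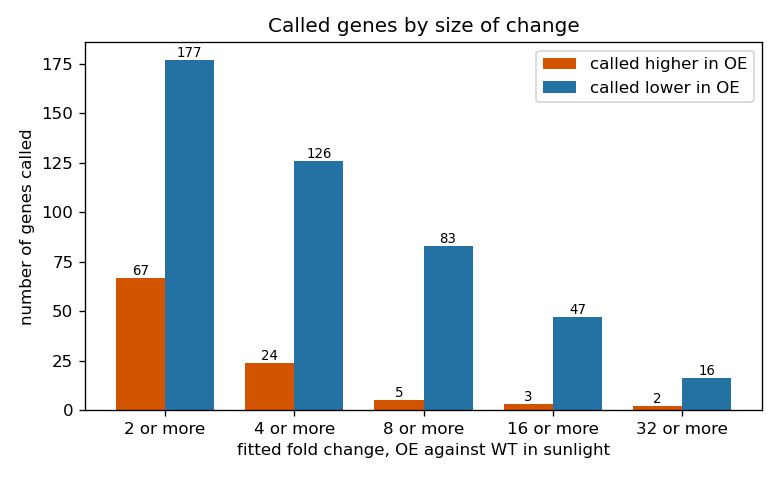
Bars give the number of called genes whose fitted fold change in sunlight (OE against WT) was at least the value on the horizontal axis. Genes called lower (blue) outnumber those called higher (orange) at every limit, from 177 against 67 at 2-fold to 16 against 2 at 32-fold.

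Genes with a high mean over the OE and WT sunlight libraries together were more often among those that fell. With genes grouped by their mean over the 6 sunlight libraries, 2.19% of the 1505 genes at 100 CPM or above fell, against 0.884% of the 10973 genes from 10 to 100 CPM, 0.742% of the 8761 genes from 1 to 10 CPM and 0.407% of the 1720 genes under 1 CPM. The share that rose was between 0.264% and 0.465% in these classes, with no such order. Genes with few counts are measured less precisely: the median standard error of the log2 fold change was 0.47 under 1 CPM, 0.25 from 1 to 10 CPM, 0.17 from 10 to 100 CPM and 0.19 at 100 CPM or above. The classes from 10 to 100 CPM and at 100 CPM or above had similar errors, both below those of the lower classes. The part of this precision in the shares was not tested. The grouping also uses the values that made the calls. By the OE sunlight mean, 7 of the 202 genes that fell had 100 CPM or more, against 1482 of all 22959 tested genes. By the WT sunlight mean the numbers were 53 of the 202 and 1503 of the 22959. Whether such genes were over-represented among those that fell thus depended on the group that set the level.

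In OE leaves the genes that fell were lower but seldom absent. Their median level was 4.58 CPM in OE sunlight and 35.3 CPM in WT sunlight. Of all 22959 tested genes, 1825 averaged under 1 CPM in OE sunlight and 1763 in WT sunlight. Of the 202 genes that fell, 43 averaged under 1 CPM in OE sunlight, against 2 in WT sunlight. In OE sunlight 78 of the 202 averaged 10 CPM or more, against 153 in WT sunlight. For 14 of them a WT mean of 10 CPM or more stood beside an OE mean under 1 CPM. Only 2 had no count in any OE sunlight library, where a count of 0 allows up to 0.479 CPM in the shallowest library and up to 0.104 CPM in the deepest. Both lists were chosen by calls in these same libraries, so the directions given here follow from the choice. The genes that rose showed the reverse on a smaller scale. Their median level was 9.50 CPM in OE sunlight and 3.89 CPM in WT sunlight, and 2 of the 84 averaged under 1 CPM in OE sunlight, against 16 in WT sunlight. None of them combined an OE mean of 10 CPM or more with a WT mean under 1 CPM, and none was without a count in all WT sunlight libraries.

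The genes named next are, for each direction, the 2 called genes without overlap between libraries whose mean CPM differed most. Potra002448g18542 had 127, 72.1 and 132 CPM in OE sunlight 2, 4 and 6, against 2406, 2629 and 1347 CPM in WT sunlight 2, 4 and 6. Every WT library stood far above every OE library. The mean was 110.2 ± 33.1 CPM in OE and 2127 ± 685 CPM in WT (SD, n = 3 each), and the log2 fold change was -4.29 ± 0.50 (SE), a 19.6-fold decrease with limma adjusted p = 0.00106.

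Potra002140g16581 had 129, 50.5 and 96.7 CPM in OE sunlight 2, 4 and 6, against 1549, 2099 and 746 CPM in WT sunlight 2, 4 and 6. As for the gene before, OE sunlight 4 was the lowest OE library, WT sunlight 4 the highest WT library and WT sunlight 6 the lowest. Its log2 fold change was -3.99 ± 0.47 (SE), a 15.9-fold decrease with limma adjusted p = 0.00107. The call was lost with a replicate block in the 6 sunlight libraries alone, where the log2 fold change was -4.01 with limma adjusted p = 0.0668. Both genes are far from the largest fitted fold changes, ranking 39 and 50 among the 202 genes that fell.

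Potra005315g25356 rose, with 1422, 2146 and 1807 CPM in OE sunlight 2, 4 and 6, against 442, 418 and 569 CPM in WT sunlight 2, 4 and 6. The groups did not overlap, and the mean was 1792 ± 362 CPM in OE and 476 ± 81.3 CPM in WT (SD, n = 3 each). The log2 fold change was 1.90 ± 0.25 (SE), a 3.74-fold increase with limma adjusted p = 0.00228.

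Potra000033g00168 had 1063, 969 and 912 CPM in OE sunlight 2, 4 and 6, against 16.2, 27.0 and 8.40 CPM in WT sunlight 2, 4 and 6. The OE libraries lay close together and the WT libraries were spread more widely relative to their mean. Its log2 fold change was 6.02 ± 0.35 (SE), with limma adjusted p = 8.18e-06, and ranked 1 among the genes that rose. Whether this gene is the introduced MYB165 or a gene that responds to it cannot be told from the ID. The calls of all 4 named genes held when any 1 of the 12 libraries was left out, with log2 fold changes of -4.58 to -4.00 for Potra002448g18542, -4.40 to -3.58 for Potra002140g16581, 1.75 to 2.08 for Potra005315g25356 and 5.55 to 6.43 for Potra000033g00168.

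**Figure D3:**
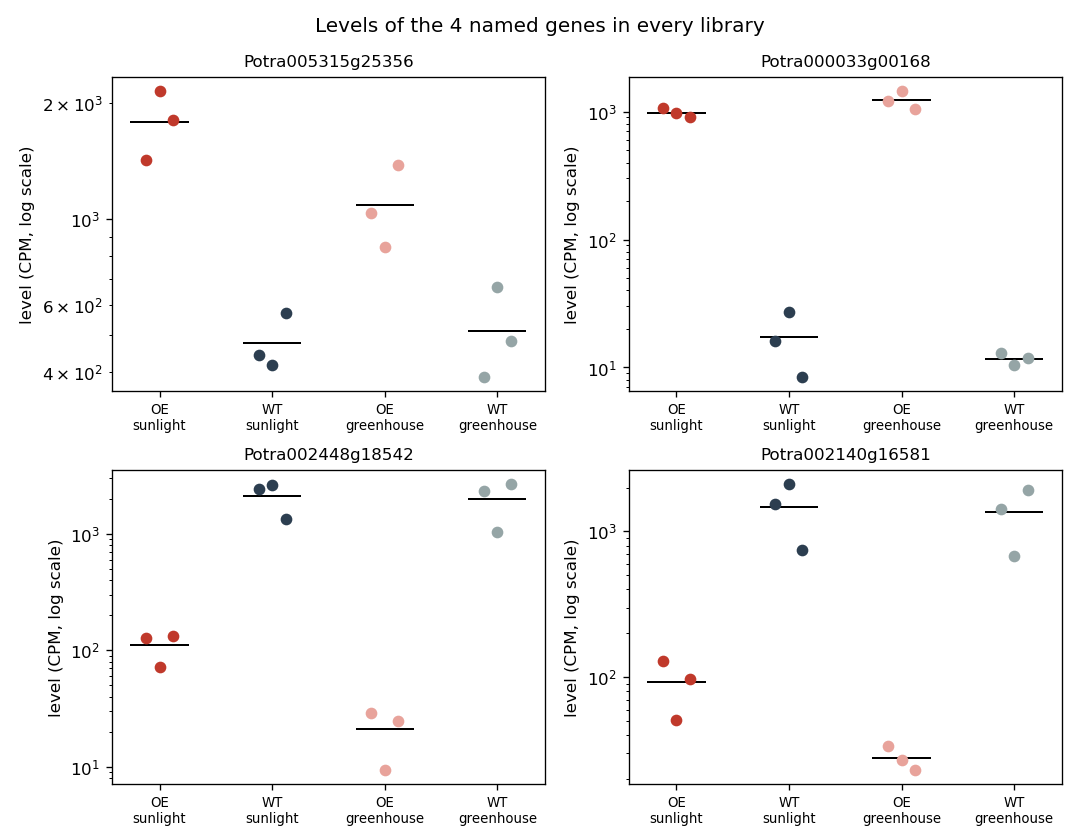
Points are the levels of 1 gene in each library, in CPM on a log scale, and horizontal lines are group means (n = 3 libraries each). In sunlight the OE points of Potra005315g25356 and Potra000033g00168 lie above all WT points, and those of Potra002448g18542 and Potra002140g16581 lie below all WT points.

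The summed counts of the called genes show how much of each library they took up. The 202 genes that fell together held 0.440%, 0.310% and 0.419% of all gene counts in OE sunlight 2, 4 and 6, against 2.25%, 3.03% and 1.72% in WT sunlight 2, 4 and 6. The 84 genes that rose held 0.737%, 0.729% and 0.715% in OE sunlight 2, 4 and 6, against 0.246%, 0.263% and 0.235% in WT sunlight 2, 4 and 6. These genes were chosen by their calls in the same libraries, so the sums describe them and test nothing. The differences in mean CPM of the genes that fell added up to 18522 CPM, of which the 12 genes with the largest differences made up 50% and the top 73 made up 90%. For the genes that rose the total was 4724 CPM, of which 3 genes made up 50% and 19 genes 90%.

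**Figure D4:**
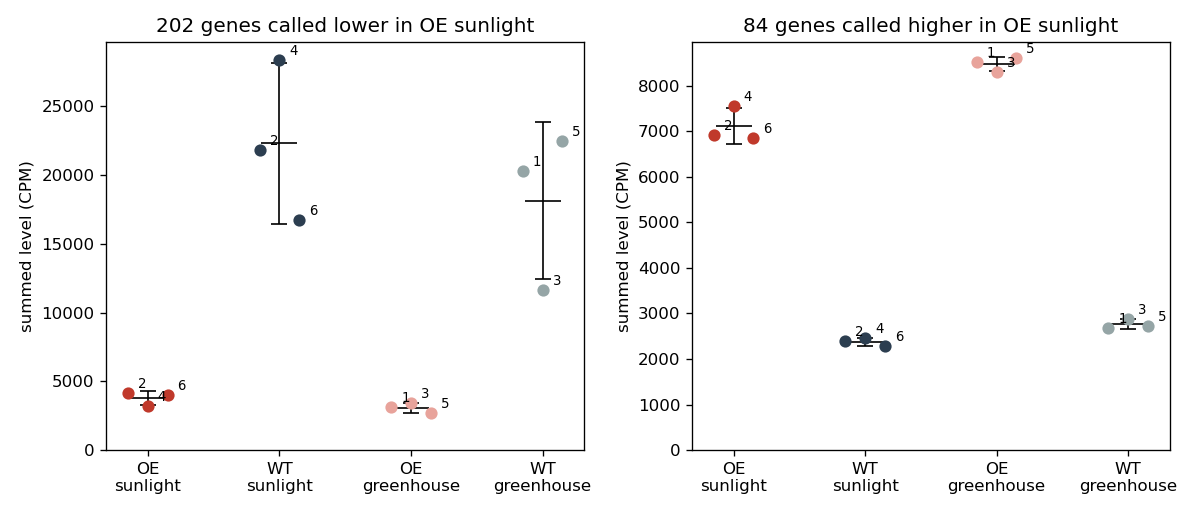
Points are the summed level of the genes called lower (left) and higher (right) in OE sunlight, in CPM, for each of the 12 libraries, numbered by replicate; bars are mean and SD of each group (n = 3). The sums of the lower genes lie close together in the OE groups and spread widely in the WT groups, while those of the higher genes lie close together in each group.

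The genes that fell had a larger spread between plants than the tested genes as a whole, and for most of them the same WT library was the highest. The median SD of log2 CPM over the 3 libraries of a group was 0.34 in OE sunlight and 0.40 in WT sunlight for these genes, against 0.21 in each group for all tested genes. WT sunlight 4 was the highest WT library for 147 of the 202 genes (72.8%, against 35.4% of all tested genes), and WT sunlight 6 the lowest for 126 (62.4%, against 33.1%). Among the OE libraries OE sunlight 4 was the lowest for 134 (66.3%, against 36.5%). The genes that rose had a median SD of 0.20 in OE sunlight and 0.31 in WT sunlight. Their lowest OE library was OE sunlight 6 for 38 of the 84 (45.2%, against 5731 of the 22959 tested genes), and their lowest WT library was WT sunlight 4 for 45 (53.6%, against 40.3%). No OE library was the highest for most of them, with 34.5%, 42.9% and 22.6% for OE sunlight 2, 4 and 6, against 35.8%, 36.2% and 27.9% of all tested genes. These orders come from the libraries in which the genes were called, and whether a shared condition of single plants lay behind them was not tested.

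The greenhouse plants gave values from libraries that had no part in the sunlight contrast. WT greenhouse 3 and 5 had 16.4% and 32.2% of their reads outside annotated genes, against 7.05% in WT greenhouse 1 and 7.23% to 8.15% in OE greenhouse, and the part of these reads in the greenhouse values was not tested. Read in the greenhouse, all 202 genes that fell in sunlight were again lower in OE by the fitted value. Their median log2 fold change was -2.50 in sunlight and -2.42 in the greenhouse. Of the 84 genes that rose in sunlight, 82 were again higher, and the median increase of the 84 was 2.78-fold in sunlight and 2.84-fold in the greenhouse. Together these 202 genes held 0.318% ± 0.0383 of gene counts in OE greenhouse and 1.62% ± 0.464 in WT greenhouse, and the 84 genes held 0.878% ± 0.0184 in OE greenhouse and 0.250% ± 0.0282 in WT greenhouse (SD, n = 3 each). The greenhouse comparison called 1094 genes, 4.77% of those tested. Of the sunlight calls 219 were also called there in the same direction, which is 76.6% of the sunlight list and 20.0% of the greenhouse list. The other 67 sunlight calls, 42 lower and 25 higher, mostly had the same sign in the greenhouse, for 42 of 42 and 23 of 25, with median log2 fold changes of -0.75 and 0.91 there. The shared number was 133, 126 and 104 without OE sunlight 2, 4 and 6, 330 without OE greenhouse 3, and 140 with each comparison fitted on its own 6 libraries. The libraries of the 2 contrasts are separate, but all 12 enter the estimate of the spread per gene.

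Genes called in the greenhouse mostly had smaller fitted changes in sunlight. The 523 genes higher in OE greenhouse, 2.28% of those tested, had a median log2 fold change of 0.70 in sunlight, where 502 of them were again higher by the fitted value. The 571 genes lower in OE greenhouse, 2.49% of those tested, had a median of -0.53 in sunlight, where 526 were again lower. Larger greenhouse decreases were more often called in sunlight, where 0.88% of all tested genes were called lower and 0.366% higher. The share called lower in sunlight was 8.76% of the 217 genes less than 2-fold lower in OE greenhouse, 18.7% of the 198 genes from 2-fold to 4-fold, 33.9% of the 56 genes from 4-fold to 8-fold and 85.0% of the 100 genes at least 8-fold lower. These 100 genes had a median log2 fold change of -3.64 in sunlight and -4.84 in the greenhouse. Of the 27 genes at least 8-fold higher in OE greenhouse, 18.5% were called higher in sunlight, with a median of 2.08 in sunlight and 3.38 in the greenhouse. Genes picked for a large value in one set of libraries tend to be less extreme in another, so a smaller median in sunlight does not by itself show a smaller effect there.

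**Figure D5:**
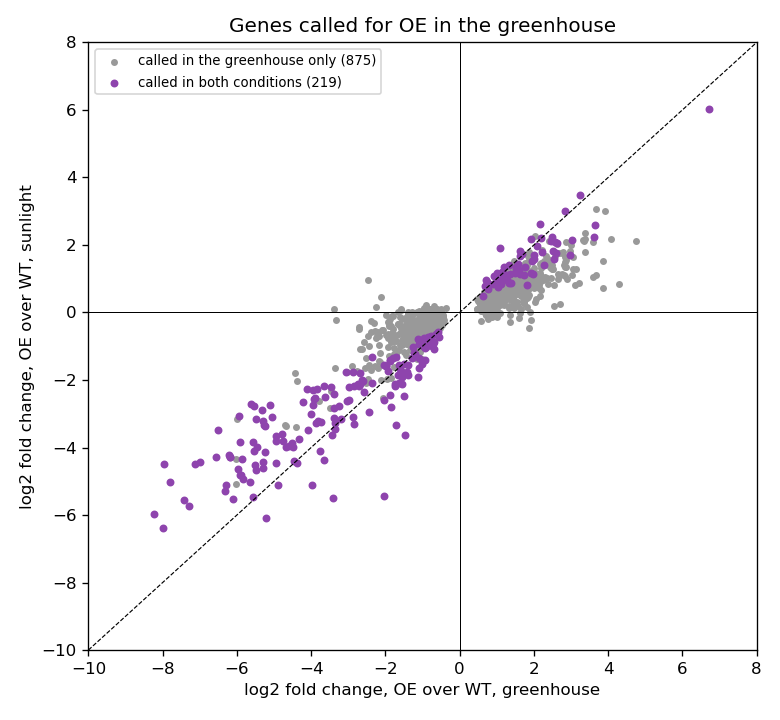
Each point is 1 of the 1094 genes called for OE in the greenhouse, with its log2 fold change (OE over WT) in sunlight on the vertical and in the greenhouse on the horizontal axis; the dashed line marks equal values. The 219 genes also called in sunlight (purple) include most of the strong decreases, and most points lie nearer to 0 in sunlight than in the greenhouse.

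The test of the difference itself, the OE effect in sunlight minus the OE effect in the greenhouse, called no gene with limma (0 of 22959, smallest adjusted p = 0.557). Without adjustment, 1377 genes (6% of those tested) had a p under 0.05, and limma-trend called 0 as well. The smallest adjusted p was 0.0551 with library quality weights, which also called 0, and without WT sunlight 2 a single gene passed at 0.00569. Potra002448g18542 shows the size of what remained under the threshold. It had 29.0, 9.35 and 24.5 CPM in OE greenhouse 1, 3 and 5, against 2322, 1028 and 2650 CPM in WT greenhouse 1, 3 and 5. The OE level in sunlight, given above, lay higher than in the greenhouse in every library, while the WT levels overlapped. On the log2 scale its fold change was -4.29 in sunlight, against -6.57 in the greenhouse. The difference was 2.28 ± 0.69 (SE, limma adjusted p = 0.818). For Potra002140g16581 the difference was 1.48 ± 0.65, for Potra005315g25356 0.82 ± 0.35 and for Potra000033g00168 -0.68 ± 0.52 (log2, SE), with limma adjusted p = 0.818, 0.818 and 0.866. The median SE of this difference over all genes was 0.30, against 0.21 for the sunlight contrast alone. No gene is thus shown to respond to MYB165 overexpression differently in sunlight and in the greenhouse, and a p that misses the threshold does not show that the responses are alike.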

How the data were processed

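RNA was taken from leaves of 12 plants, mRNA was enriched with magnetic beads, and libraries were made with a NEBNext Ultra kit, per the labels' protocols. Per the submitters' processing notes, HTSeq 0.6.1, Cufflinks and TopHat2 2.1.1 were used, in roles that are not stated. Neither the labels nor the files state a genome build, an annotation or a strand setting. Each deposited file holds unnormalized whole-number read counts, as seen from its values, and 5 closing summary entries that were set aside. Reads outside genes, ambiguous or aligned to several places are not in the gene counts, so near-identical or overlapping genes can lose reads.

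The tests used limma 3.58.1 (R 4.3.3). Count models were not run, because the automatic unit check could not read these tab-separated files and the unit was declared as other. Genes entered the tests with 0.690 CPM (10 counts in a library of median size) or more in 3 or more libraries and a total of 15 or more. Scaling was by the trimmed mean of M values, written out in R (30% of log ratios and 5% of levels trimmed from each end). The voom fit had 1 mean for each of the 4 groups, moderated variances (robust empirical Bayes) and Benjamini-Hochberg adjusted p-values. It was also run on simulated counts drawn gene by gene, without shifts shared between genes. The outcome is not given here, so this run lends the calls no support. A count of 0 allows up to 3 counts, for counting error only. The labels name separate plants but not separate lines, so p-values measure the spread between these samples. No 2 replicates agreed within sampling noise (chi-square of 12.0 or more per degree of freedom). The groups of genes and the naming rule (largest difference in mean CPM among called genes without overlap, 2 a direction) were chosen with earlier results of these data known. Alternatives changed the scaling, weights, filter, fold limit and libraries in the fit, added a replicate block, or left out single libraries.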

Additional observations from a re-analysis of the deposited data

Results flagged for a closer look

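More reads lay outside annotated genes in a pair of OE sunlight libraries than in any WT sunlight library. OE sunlight 2 had 13.1% of its reads there, with exact binomial 95% bounds of 13.0% and 13.1%. OE sunlight 4 had 8.47%, with bounds of 8.46% and 8.49%. OE sunlight 6 had 7.55%, and the highest WT sunlight library 7.74%. In the greenhouse the highest shares were in WT, with 16.4% and 32.2% in WT greenhouse 3 and 5. WT greenhouse 1 had 7.05%, below the 7.23% to 8.15% in OE greenhouse. These reads enter none of the comparisons, and the bounds allow for counting error alone. Groups of 3 libraries are too small for a search for single extreme libraries.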

How the results depend on the processing

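The number of genes called in sunlight, 286 with all libraries, was between 194 and 299 under both other scalings, no filter, the non-robust fit, limma-trend, a 2-fold limit, the compared libraries alone and a replicate block. It was 717 with library quality weights, 104 with a replicate block in the compared libraries alone, 411 without both OE greenhouse 3 and WT greenhouse 5 (chosen after seeing the data), and between 121 and 493 with 1 library left out. The number shared with the greenhouse, 219 with all libraries, was 475 with quality weights, 140 with the compared libraries alone, 147 with a replicate block, and between 104 and 330 with 1 library left out. The number for the difference between conditions was 0 in every fit that held all 4 groups, other than 1 without WT sunlight 2 (range 0 to 1 with 1 library left out); it cannot be had from the sunlight libraries alone. The share of rises among calls, 29.4%, was 44.2% with quality weights and 44.8% without OE greenhouse 3, but 18.2% without WT sunlight 6 and 18.3% with the block in the compared libraries. The number at least 8-fold lower, 83, was 55 with that block, and the number at least 8-fold higher, 5, was 11 with no filter. With 1 library left out the median log2 fold change of called genes was between -3.59 and -1.83 for those that fell and between 1.19 and 1.76 for those that rose. The cause of these shifts was not tested. Of the named genes, only Potra002140g16581 lost its call, in 1 of 22 alternatives (replicate block in the compared libraries alone, log2 fold change -4.01, adjusted p = 0.0668). Same-numbered OE and WT sunlight libraries did not deviate together (r = -0.089, -0.44 and -0.11), and no sunlight library correlated best with its own number. Of the greenhouse libraries, only OE and WT greenhouse 3 did so, at r = 0.056, and the other pairs had r = -0.16 and -0.20. Whether same-numbered samples shared a condition cannot be decided from 3 libraries a group, and the labels name no block. The replicate block gave 194 calls, 45 higher and 149 lower. OE sunlight 2, the shallowest library, sets the limit for low levels.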

Other observations

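Genes whose IDs share the number before the letter g were looked at together; the files do not say what this number stands for. The 202 genes that fell in OE sunlight carried 194 different numbers, and 16 of them shared one with another gene that fell, in 8 pairs. Of all other tested genes that shared a number with a gene that fell, counted once for each such gene, 1.27% had fallen too, against 0.88% of all tested genes. The 84 genes that rose carried 84 different numbers.

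Among all 33975 listed genes, 53 had no count in any OE sunlight library and a count in all 3 WT sunlight libraries, and 15 had the reverse pattern. OE sunlight includes the shallowest library, and these counts were not tested.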
